A study of Homo sapiens with 26 samples.

Results

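The genes described here encode the a subunits of the vacuolar proton pump, the V-ATPase, together with partners of these subunits in the same complex. They are the 4 a-subunit genes ATP6V0A1, ATP6V0A2, TCIRG1 (which encodes the a3 subunit) and ATP6V0A4, the d subunit ATP6V0D1, the V1 subunits ATP6V1A, ATP6V1B2 and ATP6V1H, and the accessory proteins ATP6AP1 and ATP6AP2. They were taken by symbol from the count tables and are 10 of the 26485 genes measured. ATP6V0A4 was chosen by its measured values, namely its rise in the doxycycline-treated shAMB cells and in the xenografts of the doxycycline food group. Its levels in those groups are therefore a description with no test, and every count of changed genes covers the other 9. All 10 genes passed the filter on low counts in both tables, ATP6V0A4 only through the 2 groups in which it was high.

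RNA had been sequenced from KELLY, a MYCN-amplified human neuroblastoma cell line, with inducible vectors for knockdown of the co-repressor RUNX1T1. There were 3 lines, each carrying the lentiviral vector FH1UTG: an empty vector (EV, labelled F1HUTG), the hairpin sh4 and the hairpin shAMB, both directed against RUNX1T1. Every line was kept for 72 h with doxycycline (Dox) or with DMSO, the solvent control, with 3 libraries in each of these 6 groups. The 8 other libraries came from KELLY tumors grown in mice, 4 labelled wild type with control food and 4 labelled RUNX1T1 KO with doxycycline food. The labels do not say which hairpin the tumors carried, and the methods of the study describe hairpin knockdown rather than a gene knock-out, with female NOD SCID gamma mice as hosts and sh #1, the Ambion-based hairpin, for the sequenced tumors. Cells with an integrated vector were a transduced pool, for which the methods state sorting by GFP in another line only. Nothing in the labels says that replicates were separate cultures, so p-values measure the spread between these libraries, which may be technical. The level of an RNA in a bulk sample cannot tell fewer cells of a type from less RNA per cell.

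Total counts were 35115908 to 54736731 per library in culture and 47346057 to 62378057 in the xenografts, and levels are given as CPM, the count relative to the library total after TMM scaling. RUNX1T1, the target of the hairpins, stood at 41.9 ± 2.41 CPM (SD, n = 3) with DMSO and 37.6 ± 1.05 with Dox in EV cells, at 34.3 ± 0.898 and 31.8 ± 1.94 in sh4 cells, and at 40.9 ± 1.04 and 42.5 ± 1.41 in shAMB cells. In the xenografts it was 35.5 ± 5.51 with control food and 30.2 ± 5.19 with Dox food (n = 4). The log2 difference passed the test in none of these 4 comparisons (edgeR adjusted p of 0.117 to 0.672). It was -0.16 in EV, -0.11 in sh4 and 0.06 in shAMB cells and -0.23 in the xenografts, and the effect in shAMB cells was higher than that in EV cells by 0.21 (edgeR adjusted p = 0.0353). The RNA of the target thus does not check the labels, and the groups are named by their labels throughout. All 10 markers of adrenergic neuroblastoma exceeded 3 counts in some library of every group, with a sum of 4698 to 5345 CPM in EV cells with DMSO. Passing this floor does not by itself establish the cell type, since all 6 fibroblast markers passed it in sh4 cells with Dox.

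Libraries of 1 group differed in the balance of GC-rich and GC-poor genes. The mean log2(CPM + 1) of genes with at least 55% GC minus that of genes with at most 45% GC was -2.17, -1.94 and -1.66 in the 3 EV libraries with DMSO and -1.66, -1.63 and -1.81 with Dox. It was -1.30, -1.56 and -1.79 in sh4 cells with DMSO and -2.09, -1.95 and -1.34 with Dox, so that replicate 3 of sh4 with Dox stood apart from replicates 1 and 2. In shAMB cells it was -2.02, -2.25 and -2.002 with DMSO and -1.66, -1.45 and -1.30 with Dox, without overlap between these groups. The xenografts had -2.08, -1.55, -1.499 and -1.61 with control food and -1.196, -1.68, -1.57 and -2.08 with Dox food. The 3 most GC-rich members were TCIRG1 (65.4% GC), ATP6V0D1 (58.1%) and ATP6AP1 (54.97%). All 3 had the same order of replicates as this balance in EV cells with DMSO, in both sh4 groups and in shAMB cells with Dox. In the other culture groups and in the tumors not all 3 did. The part of this balance in their differences was not tested. Values from a fit with trends over GC content and length taken out are given beside several of the results.

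**Figure D1:**
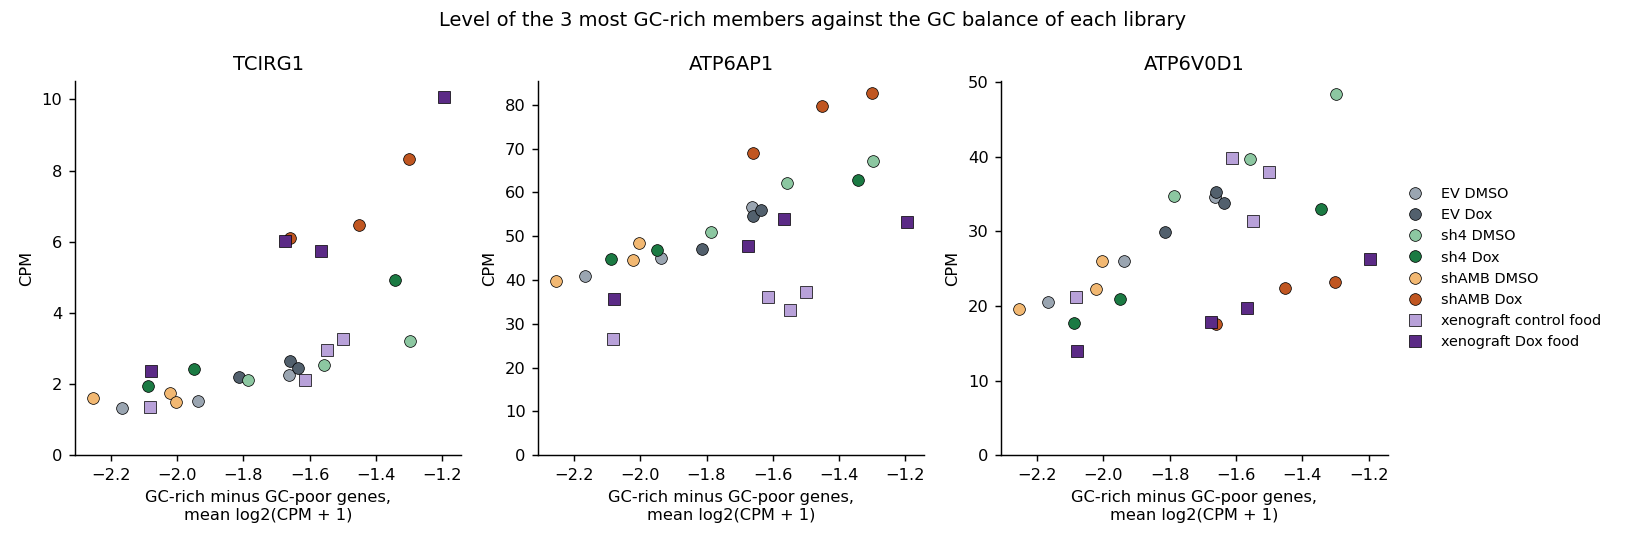
Level (CPM, linear axis from 0) of the 3 most GC-rich members in each of the 26 libraries against the GC balance of the library on the horizontal axis (mean log2(CPM + 1) of genes with at least 55% GC minus that of genes with at most 45% GC); circles are culture libraries and squares are xenografts. From left to right the 3 EV DMSO libraries of ATP6V0D1 went from 20.6 to 34.6 CPM, and the shAMB Dox libraries of TCIRG1 sat between 6.11 and 8.33 CPM, with only 1 tumor of the Dox food group above them.

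The V-ATPase is a rotary pump that uses ATP to move protons into lysosomes, endosomes, the Golgi apparatus and secretory vesicles, and across the plasma membrane of some specialised cells. Its peripheral V1 sector hydrolyses ATP, and its membrane V0 sector carries the protons, with the a subunit forming the path of the protons and directing the pump to a membrane. In mammals ATP6V0A1 is the a isoform best known from neurons and synaptic vesicles, ATP6V0A2 is found at the Golgi and endosomes, TCIRG1 serves the ruffled border of the osteoclast, and ATP6V0A4 serves acid-secreting cells such as the intercalated cells of the kidney. In neurons and neuroendocrine cells the proton gradient also drives the loading of vesicles with catecholamines.

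The start sites of 2 of these genes are shown. ATP6V0A4 was taken because its level ranged from no counts to several CPM. ATP6V0D1 was taken as the only one of the 7 members with a promoter entry whose windows hold CACGTG, a form of the E-box. ATP6V0A4 lies at chr7:138706294-138799560 on the minus strand (hg38), and RefSeq lists 2 start sites for it. The windows run from 250 bases before to 50 bases after the start, 5′ to 3′ on the strand of the gene, as given by RefSeq for build GRCh38.p14. Capitals mark CACGTG, the form of the E-box to which dimers of MYC family proteins with MAX, and also TFEB and its relatives, can bind. Other forms of the E-box were not searched for.
ATP6V0A4 upstream start, chr7:138798147-138798446, minus strand: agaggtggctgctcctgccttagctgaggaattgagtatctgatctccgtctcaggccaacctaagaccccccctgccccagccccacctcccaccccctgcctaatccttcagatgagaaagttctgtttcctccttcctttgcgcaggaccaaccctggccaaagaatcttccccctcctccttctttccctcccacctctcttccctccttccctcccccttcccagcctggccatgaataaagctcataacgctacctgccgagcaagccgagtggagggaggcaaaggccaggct
ATP6V0A4 downstream start, chr7:138773886-138774185, minus strand: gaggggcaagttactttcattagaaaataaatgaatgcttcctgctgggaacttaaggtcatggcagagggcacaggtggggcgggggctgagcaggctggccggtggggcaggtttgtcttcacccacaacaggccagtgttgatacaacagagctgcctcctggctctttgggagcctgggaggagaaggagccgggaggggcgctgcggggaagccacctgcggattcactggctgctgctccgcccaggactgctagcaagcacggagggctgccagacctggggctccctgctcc
ATP6V0D1, chr16:67481108-67481407, minus strand: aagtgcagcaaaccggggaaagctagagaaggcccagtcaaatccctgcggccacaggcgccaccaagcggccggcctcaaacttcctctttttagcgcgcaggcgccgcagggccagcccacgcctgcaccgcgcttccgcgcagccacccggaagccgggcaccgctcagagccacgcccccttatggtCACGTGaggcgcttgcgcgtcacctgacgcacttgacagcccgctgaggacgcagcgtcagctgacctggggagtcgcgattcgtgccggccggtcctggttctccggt
The letters CACGTG read the same on both strands. They occurred once in the ATP6V0D1 window, 59 bases before the start, where they stand inside the longer palindrome TCACGTGA, and in neither ATP6V0A4 window. Of the 35116 RefSeq promoters of the same 300 bases, 7.256% held CACGTG and 0.9796% held TCACGTGA. Promoter entries matched 7 of the 10 members, with 9 windows, of which 1 held CACGTG. Among the lysosomal genes described further on, 16 of 74 windows (21.62%) held it. A match is a description of letters and not of binding.

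None of the 9 members was called changed with Dox in the empty vector line. In sh4 cells 5 members fell, ATP6AP2 the most, and none rose. In shAMB cells TCIRG1 and ATP6AP1 rose and ATP6V1B2 fell. In the xenografts TCIRG1, ATP6AP1, ATP6V1H and ATP6V1A were higher in the Dox food group and ATP6V0D1 was lower.

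In EV cells 0 of 9 members were changed (edgeR adjusted p under 0.05, Benjamini-Hochberg over all genes tested), none passed an unadjusted p of 0.05 and DESeq2 also called 0, beside 0.0939% of the 14905 genes tested. In sh4 cells 5 of 9 were changed, 0 higher and 5 lower, beside 40.9% of all genes changed, 22.9% higher and 18% lower. In shAMB cells 3 of 9 were changed, 2 higher and 1 lower, beside 66.0% of all genes, 37.6% higher and 28.4% lower. That count was 5 with RLE scaling and by DESeq2, and 8 with GC content and length trends removed, a setting that called 10700 of the 14905 genes. In the xenografts 5 of 9 were changed, 4 higher and 1 lower, beside 41.1% of 15960 genes, 21.2% higher and 19.9% lower. That count was 3 without control replicate 1, control replicate 3 or Dox food replicate 2, and 2 without control replicate 4 or Dox food replicate 3. The median log2 difference of the 9 members was -0.012 with Dox in the empty vector line, beside 0.0099 over all genes. It was -0.23 beside -0.0046 for sh4, 0.011 beside 0.096 for shAMB and 0.26 beside 0.019 for the tumors. The 2 groups did not overlap for 1 member in EV cells (background 14.1% of genes), 5 in sh4 cells (41.3%), 6 in shAMB cells (73.4%) and 1 in the xenografts (36.7%).

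The effect of Dox in a hairpin line was also tested against its effect in EV cells, an interaction in the same fit. In sh4 cells 4 members had a lower effect than in EV cells, ATP6V0A1, ATP6V0D1, ATP6V1A and ATP6AP2, and none a higher one, beside 32.6% of all genes, 17.8% higher and 14.7% lower. In shAMB cells 2 had a higher effect than in EV cells, TCIRG1 and ATP6AP1, and none a lower one, beside 45.5% of all genes, 23.7% higher and 21.7% lower, and without EV DMSO replicate 3 the count was 1. Both comparisons use the same 6 EV libraries. The effect in sh4 cells minus that in shAMB cells was changed for 7 members, with ATP6V1B2 higher and ATP6V0A1, ATP6V0A2, TCIRG1, ATP6V1A, ATP6AP1 and ATP6AP2 lower, beside 60.9% of all genes, 27.8% higher and 33.1% lower. Without Dox, sh4 cells with DMSO differed from EV cells with DMSO in 0 members (4 at an unadjusted p under 0.05, 0 by DESeq2), beside 1.12% of all genes, and shAMB cells with DMSO differed in ATP6V1B2 alone, beside 1.52%.

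**Figure D2:**
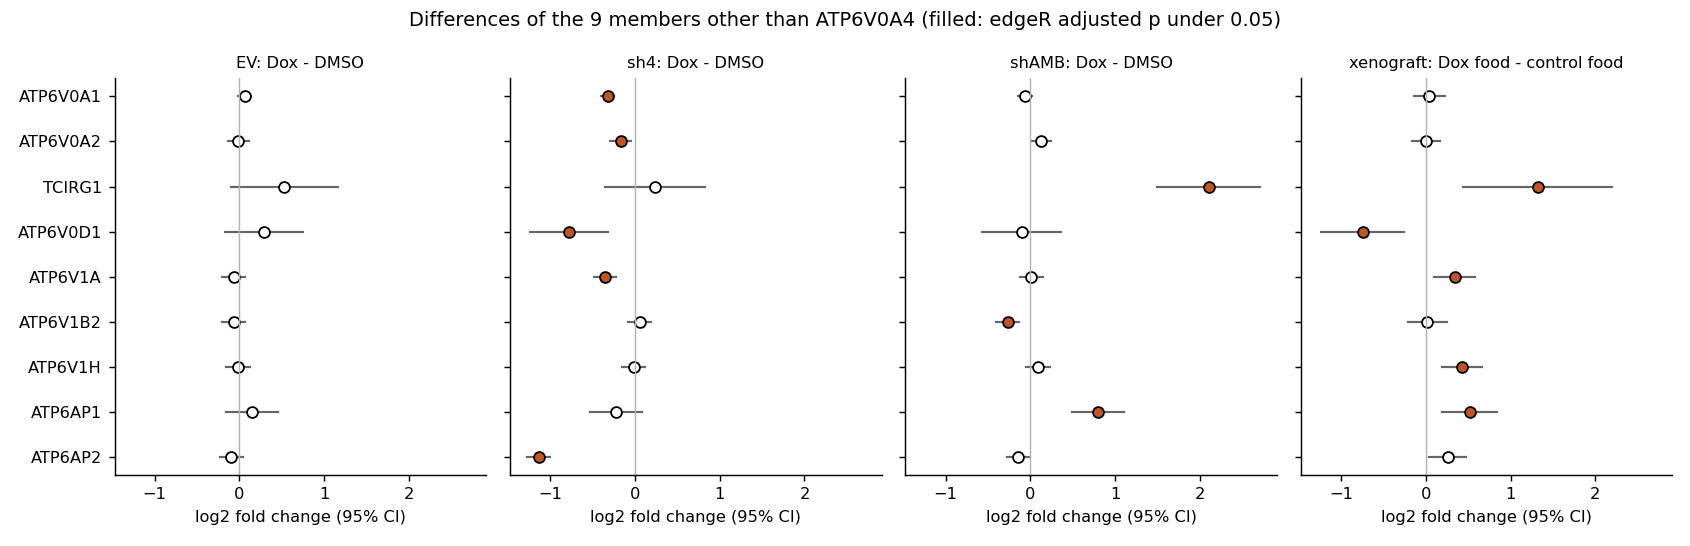
Log2 fold change with its 95% confidence interval (horizontal axis) for the 9 members other than ATP6V0A4 (vertical axis), in 4 panels for EV, sh4 and shAMB cells (Dox minus DMSO, n = 3 and 3) and for the xenografts (Dox food minus control food, n = 4 and 4); filled points have an edgeR adjusted p under 0.05. The EV panel holds no filled point, the sh4 panel 5, the shAMB panel 3 and the xenograft panel 5.

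Per transcript length the V1 subunit ATP6V1B2 and ATP6AP2 were the most abundant members in EV cells with DMSO, at 66.4 ± 3.60 and 54.6 ± 1.56 CPM per kilobase (SD, n = 3). ATP6V1A (31.02 ± 2.07) and ATP6V0A1 (30.7 ± 0.677) came next and were within 1 SD of each other. ATP6AP1 (22.6 ± 3.88), ATP6V0D1 (16.2 ± 4.23) and ATP6V1H (15.98 ± 0.214) followed, and libraries of the first 2 of them overlapped. ATP6V0A2 (6.82 ± 0.368) was lower, and TCIRG1 (0.670 ± 0.190) and ATP6V0A4 (0.0268 ± 0.0262) were the scarcest. Among the a subunits the neuronal isoform thus made up most of the RNA of this neuroblastoma line.

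**Figure D3:**
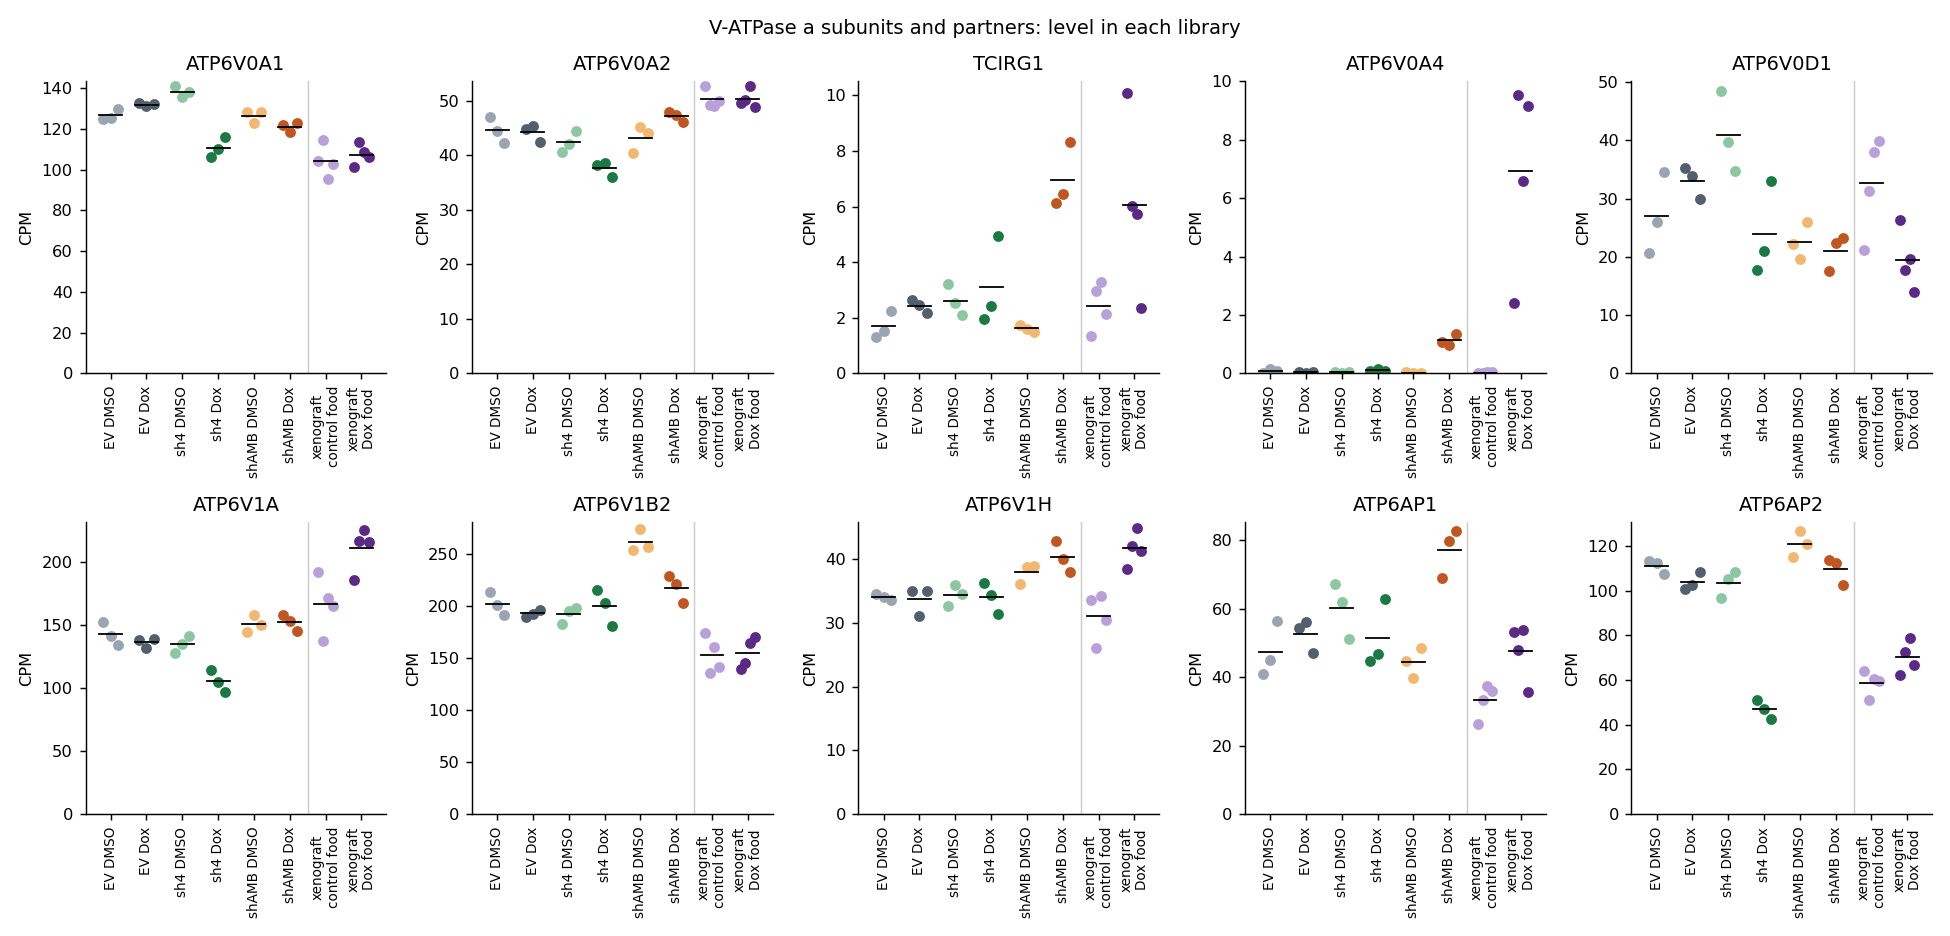
Level of each of the 10 members (vertical axis, CPM, linear from 0) in every library of the 8 groups (horizontal axis); each point is 1 library, ordered by replicate number, the black line is the group mean, and the grey line separates culture from xenografts, which were scaled separately. ATP6AP2 in sh4 cells with Dox (42.8 to 51.2 CPM) lay below every other culture library, and ATP6V0A4 was above 0.2 CPM only in shAMB cells with Dox and in tumors of the Dox food group.

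ATP6V0A1, at chr17:42458844-42522582, encodes the neuronal a1 subunit. It stood at 141, 136 and 138 CPM in the 3 sh4 libraries with DMSO and at 106, 110.1 and 116 with Dox, so that the groups did not overlap. The fall was 0.32 on the log2 scale (SE 0.04, edgeR adjusted p = 5.06e-06), in 3 of 3 libraries. In EV cells it was 125, 125 and 129.9 CPM with DMSO and 133, 131 and 132 with Dox, a log2 difference of 0.06 (edgeR adjusted p = 0.672). The effect in sh4 cells was lower than that in EV cells by 0.38 (SE 0.05, edgeR adjusted p = 6.07e-05). In shAMB cells the 3 libraries held 128, 123 and 128 CPM with DMSO and 122, 119 and 123 with Dox. That log2 difference of -0.06 did not pass the test (edgeR adjusted p = 0.156), but did with RLE scaling, with no filter on low counts, with only these 6 libraries in the fit, with GC and length trends taken out and by DESeq2 (-0.14, adjusted p = 3.04e-04). The same 5 settings called the effect in shAMB cells lower than that in EV cells (-0.12, edgeR adjusted p = 0.0729, and -0.17 by DESeq2). In the tumors it ranged from 95.3 to 115 CPM with control food and from 101 to 113 with Dox food, a log2 difference of 0.04 with a 95% interval of -0.14 to 0.22.

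ATP6V0A2, at chr12:123712353-123761755, encodes the a2 subunit of the Golgi and endosomes. Over all 18 culture libraries it stayed within 36.1 to 48.03 CPM and over the 8 tumors within 48.8 to 52.8 CPM. It fell in sh4 cells, from 42.4 ± 1.97 to 37.7 ± 1.42 CPM (SD, n = 3), by 0.17 on the log2 scale (SE 0.06, edgeR adjusted p = 0.0234). This call was lost without replicate 3 of sh4 with DMSO (-0.13, edgeR adjusted p = 0.0936) and without replicate 3 of sh4 with Dox (-0.14, 0.0644). It was also lost with only these 6 libraries in the fit (adjusted p from edgeR = 0.116), while taking out GC and length trends gave -0.32. In shAMB cells it was 43.3 ± 2.44 CPM with DMSO and 47.2 ± 1.02 with Dox, without overlap, and the log2 difference of 0.13 did not pass the test (edgeR adjusted p = 0.0595). It did so without replicate 2 of shAMB with DMSO (0.15, edgeR adjusted p = 0.0455) and with GC and length trends taken out (0.12, 0.0143). The effect in sh4 minus that in EV cells was -0.16 (edgeR adjusted p = 0.136), and -0.36 with these trends taken out (1.01e-04).

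TCIRG1, at chr11:68039025-68050895, encodes the a3 subunit of the osteoclast and of secretory lysosomes. In shAMB cells it stood at 1.75, 1.61 and 1.498 CPM with DMSO and at 6.11, 6.47 and 8.33 with Dox. The groups lay far apart, and TCIRG1 rose by 2.10 on the log2 scale (SE 0.29, edgeR adjusted p = 1.07e-05). With GC content and length trends removed the rise was 1.09 (edgeR adjusted p = 9.14e-08). In EV cells it was 1.32, 1.54 and 2.25 CPM with DMSO and 2.65, 2.46 and 2.19 with Dox, overlapping groups with a log2 difference of 0.53 (edgeR adjusted p = 0.672). The effect in shAMB cells exceeded that in EV cells by 1.57 (SE 0.41, edgeR adjusted p = 0.00535), and by 0.86 with these trends taken out. In sh4 cells the libraries held 3.21, 2.54 and 2.11 CPM with DMSO and 1.96, 2.43 and 4.93 with Dox, where replicate 3 was the highest of the 6. The log2 difference there was 0.24 (edgeR adjusted p = 0.516), and 0.58 with GC content and length trends removed (adjusted p = 1.80e-04). Set against EV cells, the effect in sh4 cells was -0.29 (edgeR adjusted p = 0.603), but -0.78 without replicate 3 of sh4 with Dox (0.0385) and, with the opposite sign, 0.36 with GC and length trends taken out (0.0849).

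In the tumors TCIRG1 stood at 1.34, 2.96, 3.28 and 2.12 CPM with control food and at 10.1, 6.03, 5.75 and 2.36 with Dox food. Replicate 1 of the Dox food group was the highest and replicate 4 lay inside the range of the controls, so that the groups overlapped. The log2 difference was 1.32 (SE 0.40, edgeR adjusted p = 0.0214), with 3 of 4 libraries above the control mean. The call was lost without control replicate 1 (1.07, edgeR adjusted p = 0.0539), without control replicate 4 (1.25, 0.0588), without Dox food replicate 1 (0.96, 0.051) and without Dox food replicate 3 (1.31, 0.0518). The call was also lost with a replicate block (1.19, edgeR adjusted p = 0.066) and kept with GC and length trends taken out (1.10, 3.62e-04). Of the exon bases of TCIRG1, 3.371% are shared with another annotated gene on the same strand.

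ATP6V0A4 encodes the a4 subunit of acid-secreting cells, and its RNA was near the limit of detection in most groups. The EV libraries held 0, 6 and 3 counts with DMSO and 2, 1 and 2 with Dox, and the sh4 libraries held 3, 0 and 2 with DMSO and 4, 7 and 3 with Dox. In shAMB cells the counts were 2, 0 and 0 with DMSO and 48, 56 and 59 with Dox. In the tumors they were 1, 1, 2 and 3 with control food and 139, 542, 423 and 476 with Dox food. The gene was thus detected well in 2 groups alone, 1.14 ± 0.199 CPM in shAMB cells with Dox (SD, n = 3) and 6.92 ± 3.27 CPM in tumors of the Dox food group (n = 4), and replicate 1 of that group had the lowest of the 4 tumor values at 2.42 CPM. The same tumor had the highest TCIRG1.

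Summed over libraries and set against their totals, ATP6V0A4 was 65.4 times as abundant with Dox as with DMSO in shAMB cells (163 against 2 counts). It was 203 times as abundant with Dox food as with control food (1580 against 7 counts). Both ratios describe the values by which the gene was chosen, so they are given with no interval and no test. In the lines whose contrasts did not choose the gene the same ratio was 0.557 in EV cells (5 against 9 counts, 0.147 to 1.85). In sh4 cells it was 2.99 (14 against 5 counts, 1.02 to 10.6). These intervals cover counting error only and not the spread between libraries, and reads without molecular identifiers are not independent molecules. The edgeR test, which includes that spread, called neither difference (edgeR adjusted p = 0.703 in EV and 0.172 in sh4 cells). ATP6V0A4 entered this test only through shAMB cells with Dox. With 0 to 7 counts per library in EV and sh4 cells, the test could decide little. The 95% interval of the log2 difference in sh4 cells was -0.302 to 3.296, so neither a rise nor its absence was shown there. The kit of the labels keeps the strand but whether counting used it is not stated, and 3.71% of the exon bases of ATP6V0A4 overlap TMEM213 on the opposite strand.

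The make-up of the a-subunit RNA was taken within each library as the share of each gene in the sum of the 4, per transcript length. ATP6V0A1 made up 80.3% ± 0.682 (SD, n = 3) in EV cells with DMSO and 80.5% ± 0.675 with Dox. Its share was 81.7% ± 0.324 and 79.3% ± 0.235 in sh4 cells, and 80.8% ± 1.01 and 73.97% ± 0.574 in shAMB cells. Neither pair of hairpin groups overlapped. In the tumors the share was 74.5%, 76.1%, 72.4% and 74.6% with control food and 66.5%, 67.6%, 67.8% and 69.4% with Dox food. Every control tumor lay above every Dox food tumor. These shares are given with no test, because ATP6V0A4, which was chosen by its level in shAMB cells and in the tumors, is part of the sum. The sum of the 4 genes was 33.9 ± 1.90 CPM per kilobase with control food and 38.3 ± 1.73 with Dox food.

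TCIRG1 made up 1.68% ± 0.139 of the a-subunit RNA in shAMB cells with DMSO and 6.90% ± 1.06 with Dox, and 2.82% ± 1.05 and 6.23% ± 3.40 in the tumors. ATP6V0A4 reached 0.928% ± 0.143 in shAMB cells with Dox and 5.81% ± 2.68 in tumors with Dox food, where its share was 2.13%, 7.61%, 5.51% and 7.99% in the 4 tumors. ATP6V0A2 held 17.5% ± 1.09 and 18.2% ± 0.701 in shAMB cells, and 22.7% ± 1.44 and 20.1% ± 0.853 in the tumors. Without ATP6V0A4 in the sum, the share of ATP6V0A1 differed by -2.34 percentage points in the tumors (exact two-sided permutation p = 0.286), by -2.33 points in sh4 cells and -6.18 in shAMB cells (exact permutation p = 0.1 in each, the smallest that 3 against 3 libraries allow), and by 0.174 points in EV cells (exact permutation p = 0.8). None of these 4 p-values was under 0.05 before any adjustment.

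**Figure D4:**
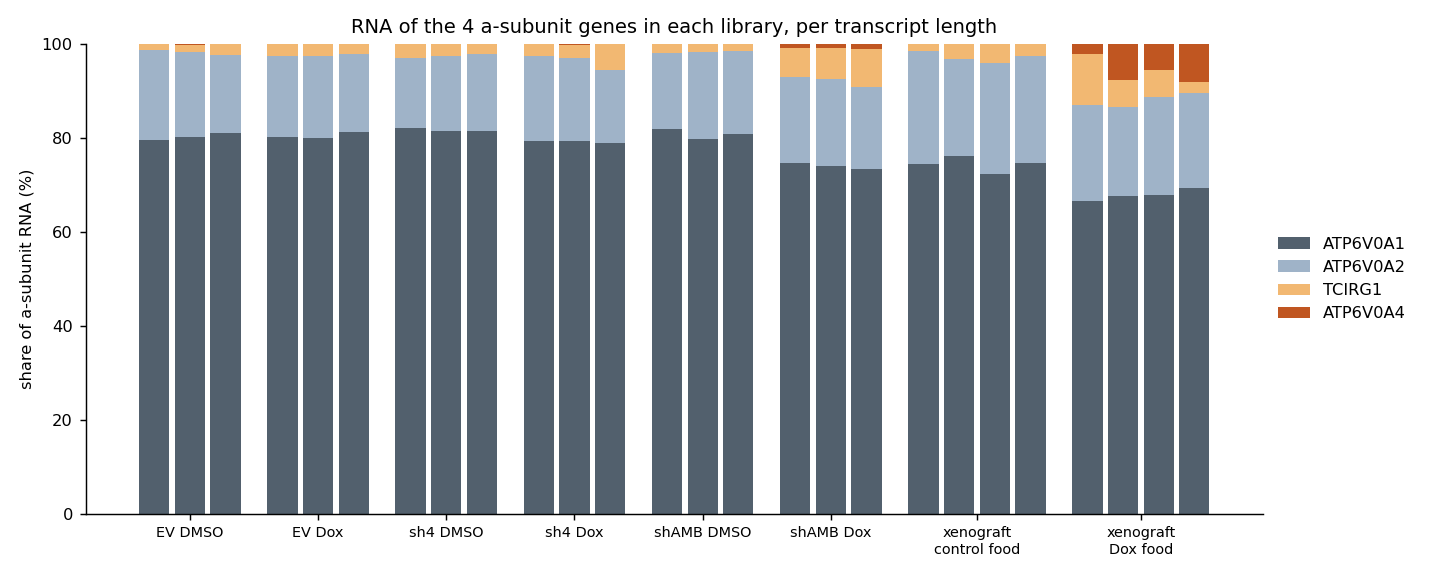
Share of each of the 4 a-subunit genes in their summed RNA per transcript length (vertical axis, percent, 0 to 100), with 1 stacked bar for each of the 26 libraries in replicate order within the 8 groups (horizontal axis). ATP6V0A1 fills 79.0% to 82.0% of the bars of every culture group but shAMB Dox, 73.4% to 74.6% of the shAMB Dox bars and 66.5% to 69.4% of the bars of tumors with Dox food.

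ATP6V0D1, at chr16:67438014-67481181, encodes the d subunit, which links the rotor of V0 to the stalk of V1. It stood at 48.4, 39.7 and 34.8 CPM in sh4 cells with DMSO and at 17.8, 20.9 and 33.1 with Dox, where replicate 3 lay just under the lowest DMSO library. It fell by 0.78 on the log2 scale (SE 0.22, edgeR adjusted p = 0.00871), and the call was lost when only these 6 libraries entered the fit (adjusted p = 0.057). In EV cells it was 20.6, 26.03 and 34.6 CPM with DMSO and 35.3, 33.8 and 29.9 with Dox, a log2 difference of 0.29 in the other direction (edgeR adjusted p = 0.672). The effect in sh4 cells was below that in EV cells by 1.07 (SE 0.30, edgeR adjusted p = 0.0143), with -0.67 once GC and length trends were taken out. The shAMB libraries held 22.2, 19.6 and 26.05 CPM with DMSO and 17.5, 22.4 and 23.2 with Dox, and the groups overlapped. That log2 difference was -0.10 (edgeR adjusted p = 0.687) but -0.54 with GC content and length trends removed (adjusted p = 1.08e-05), where the same setting gave -0.56 in sh4 cells. The effect in shAMB cells minus that in EV cells was -0.39 (edgeR adjusted p = 0.316), and -0.64 with the trends taken out (8.89e-05).

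In the tumors ATP6V0D1 stood at 21.2, 31.3, 37.99 and 39.9 CPM with control food and 26.3, 17.8, 19.7 and 13.96 with Dox food. Control replicate 1 was low and lay inside the range of the Dox food group. The fall was 0.75 on the log2 scale (SE 0.22, edgeR adjusted p = 0.0201), with 4 of 4 libraries below the control mean. It lost the call without control replicate 3 (edgeR adjusted p = 0.0533), control replicate 4 (0.0614) or Dox food replicate 2 (0.058), with log2 values of -0.67, -0.64 and -0.71. The call was also lost with a replicate block (-0.75, edgeR adjusted p = 0.0714) and kept with GC and length trends taken out (-0.70, 2.66e-04). Of the 9 members ATP6V0D1 was the only one called lower in these tumors.

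Of the V1 sector, ATP6V1A at chr3:113746770-113812056 encodes the catalytic A subunit that hydrolyses ATP. It stood at 128, 135 and 141 CPM in sh4 cells with DMSO and 114, 105 and 96.6 with Dox, without overlap. The fall was 0.35 on the log2 scale (SE 0.06, edgeR adjusted p = 3.30e-04). The effect was below that in EV cells by 0.29 (edgeR adjusted p = 0.0229), a call lost without EV Dox replicate 1 (-0.28, 0.0503), without sh4 DMSO replicate 3 (-0.25, 0.0506) and with RLE scaling (-0.27, 0.0573), and -0.49 with GC and length trends taken out. For shAMB cells the level was 151 ± 6.96 and 152 ± 6.32 CPM (SD, n = 3), a log2 difference of 0.01 with a 95% interval of -0.12 to 0.15, which was called with GC and length trends taken out (0.15), as was its difference from EV cells (0.15, edgeR adjusted p = 0.00155), and which was negative with RLE scaling (-0.06). In the tumors the values were 192, 137, 171 and 165 CPM with control food and 186, 217, 225 and 216 with Dox food, and control replicate 1 lay above the lowest Dox food tumor. The rise of 0.34 (SE 0.11, edgeR adjusted p = 0.0289) depended on single libraries. It kept the call with GC and length trends taken out (0.33, edgeR adjusted p = 0.00462) but not with a replicate block (0.35, 0.0803). It lost the call with no filter on low counts (edgeR adjusted p = 0.0763), without control replicate 2 (0.0593), 3 (0.0568) or 4 (0.0746), and without Dox food replicate 2 (0.0769), 3 (0.0667) or 4 (0.054), with log2 values of 0.25 to 0.35.

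ATP6V1B2, on chromosome 8, encodes the brain-type B subunit that pairs with the catalytic subunit. It was higher in shAMB cells before any Dox, at 254, 274 and 257 CPM with DMSO beside 213, 201 and 192 in EV cells. That log2 difference was 0.37 (SE 0.06, edgeR adjusted p = 0.00441). With Dox the shAMB libraries fell to 228, 221 and 203 CPM, by 0.27 on the log2 scale (SE 0.06, edgeR adjusted p = 0.00158), and with a log2 difference of -0.10 with GC content and length trends removed. The effect in shAMB cells was not called different from that in EV cells (-0.20, edgeR adjusted p = 0.0804), but was without EV DMSO replicate 1 (-0.24, 0.0434), with GC and length trends taken out (-0.10, 0.00667) and with only the groups compared in the fit (-0.26, 0.0122). In sh4 cells it was 192 ± 8.22 and 199.8 ± 17.7 CPM, and in the tumors 153 ± 17.97 and 155 ± 14.9 (n = 4), differences that did not pass the test, except that the one in sh4 cells was called with the opposite sign with GC and length trends taken out (-0.05, edgeR adjusted p = 0.0351).

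ATP6V1H, also on chromosome 8, encodes the H subunit, which couples ATP hydrolysis to proton transport. In culture it ranged from 31.2 to 42.9 CPM, with no change called in any line, except in shAMB cells with GC and length trends taken out (0.15, edgeR adjusted p = 0.0153), where the difference from EV cells was also called (0.20, 0.0354). In the tumors it stood at 33.6, 26.1, 34.2 and 30.4 CPM with control food and 38.5, 42.2, 44.95 and 41.3 with Dox food, the only one of the 9 members without overlap there. The rise was 0.43 on the log2 scale (SE 0.11, edgeR adjusted p = 0.00817), and it kept its call with each tumor left out in turn.

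The accessory protein ATP6AP2, at chrX:40579372-40606848, is also known as the prorenin receptor and takes part in assembly of V0. It had the largest difference of the 9 members in sh4 cells. The libraries held 96.6, 105 and 108 CPM with DMSO and 51.2, 47.2 and 42.8 with Dox, and the fall was 1.14 on the log2 scale (SE 0.07, edgeR adjusted p = 1.90e-09). In EV cells it was 113, 112 and 107 CPM with DMSO and 101, 102 and 108 with Dox, and the effect in sh4 cells was lower by 1.04 (SE 0.09, edgeR adjusted p = 5.98e-07). The shAMB libraries held 115, 127 and 121 CPM with DMSO and 114, 113 and 103 with Dox. That log2 difference was -0.14 (edgeR adjusted p = 0.0632), and -0.18 without DMSO replicate 1 (adjusted p = 0.0415). It was also called with RLE scaling, with no filter on low counts, by DESeq2 (-0.22) and with only these 6 libraries in the fit, but with GC and length trends taken out it had the opposite sign (0.02, edgeR adjusted p = 0.439). The effect in shAMB cells minus that in EV cells was -0.04, and 0.08 with these trends taken out (edgeR adjusted p = 0.716 and 0.0724). The effects in the 2 hairpin lines differed by -0.99 (SE 0.09, edgeR adjusted p = 2.52e-07). In the tumors it ranged from 51.1 to 64.1 CPM with control food and from 62.4 to 78.8 with Dox food, a log2 difference of 0.26 (edgeR adjusted p = 0.0645) that passed the test without Dox food replicate 1 (0.31, 0.0292) and with GC and length trends taken out (0.31, 0.00753).

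ATP6AP1, at chrX:154428633-154436516, encodes the Ac45 glycoprotein of the assembled V0 sector. In shAMB cells it stood at 44.6, 39.8 and 48.5 CPM with DMSO and 69.1, 79.8 and 82.6 with Dox, well apart. It rose by 0.80 on the log2 scale (SE 0.14, edgeR adjusted p = 1.66e-04), and by 0.55 with GC content and length trends removed. The effect exceeded that in EV cells (40.9, 44.97 and 56.6 CPM with DMSO, 54.5, 56.1 and 47.2 with Dox) by 0.65 (SE 0.20, edgeR adjusted p = 0.0162). Without EV DMSO replicate 3, the highest of that group, this was 0.50 (edgeR adjusted p = 0.0522). In sh4 cells it was 67.1, 62.1 and 51.05 CPM with DMSO and 44.7, 46.8 and 62.9 with Dox, where the log2 difference was -0.23 (edgeR adjusted p = 0.224), and -0.39 without replicate 3 of sh4 with Dox (adjusted p = 0.0219). The tumors held 26.5, 33.3, 37.4 and 36.1 CPM with control food and 53.2, 47.9, 53.9 and 35.6 with Dox food, where replicate 4 lay inside the control range. The rise was 0.52 (SE 0.15, edgeR adjusted p = 0.0175), lost without control replicate 1 (0.38, 0.0526) or Dox food replicate 3 (0.43, 0.0772). The call was also lost with a replicate block (0.51, edgeR adjusted p = 0.0528) and kept with GC and length trends taken out (0.59, 2.55e-04).

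The other V-ATPase genes form a list of 29 that holds the other subunits, assembly factors and regulators, of which 27 were tested. In EV cells 0 were changed (1 at an unadjusted p under 0.05, 0 by DESeq2). In sh4 cells 13 were changed, 6 upward and 7 downward, or 8 without DMSO replicate 1 or Dox replicate 2 of that line. In shAMB cells 16 were changed, 12 upward and 4 downward. The tumors had 9, of which 5 were higher with Dox food. These counts are 48.1%, 59.3% and 33.3% of the list, beside 40.9%, 66.0% and 41.1% of all genes. The median log2 difference of the 27 genes was -0.0027 for the empty vector, -0.11 for sh4, 0.23 for shAMB and 0.0033 for the tumors. In sh4 cells ATP6V1C1, the C subunit that helps to join V1 and V0, fell from 131 to 60.98 CPM (log2 -1.10), and the neuronal G subunit ATP6V1G2 from 11.3 to 5.86 (-0.94). ATP6V0B (-0.41) and ATP6V1F (-0.39) fell as well, while ATP6V1E2 (0.76), the assembly factor VMA21 (0.53), ATP6V0E1 (0.48) and ATP6AP1L (0.36) rose. In shAMB cells NCOA7, whose TLDc domain binds the pump, rose from 25.3 to 47.6 CPM (0.91), and so did ATP6V0B (0.56), ATP6V0E2 (0.55) and TMEM9 (0.55). ATP6V1E2 (-1.77), the assembly factor CCDC115 (-0.90), TBC1D24 (-0.35) and ATP6V1E1 (-0.15) fell.

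In the xenografts NCOA7 (0.84), ATP6V1G2 (0.81), ATP6V1C1 (0.42) and the RAVE-like assembly factor DMXL1 (0.38) were higher with Dox food, and TBC1D24 (-0.87), CCDC115 (-0.55) and ATP6V1F (-0.51) were lower, with edgeR adjusted p of 0.00115 to 0.0278 over these 7. Isoforms known from the same acid-secreting cells as ATP6V0A4 were read too. ATP6V1B1, the B subunit of kidney intercalated cells, stood at 0.584 ± 0.173 CPM with DMSO and 0.878 ± 0.0942 with Dox in shAMB cells (log2 0.58, edgeR adjusted p = 0.105). In the tumors it was 0.797 ± 0.242 with control food and 0.679 ± 0.245 with Dox food (-0.22, 0.618). ATP6V0D2, the osteoclast and kidney d subunit, and ATP6V1G3, the kidney G subunit, did not pass the filter on low counts in either table. ATP6V1C2 stayed near 5 CPM in all groups, with a mean of 5.73 CPM before and 5.39 after Dox in shAMB cells.

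A list of 66 lysosomal genes, with the enzymes, membrane proteins, Ragulator and Rag GTPases of the organelle that the pump acidifies, was followed beside the members. Of 63 tested in culture, 0 were changed in EV cells (4 at an unadjusted p under 0.05), 31 in sh4 cells (13 higher, 18 lower) and 43 in shAMB cells (21 higher, 22 lower). Of 64 tested in the xenografts 25 were changed, 7 higher and 18 lower. The shares of 49.2%, 68.3% and 39.1% stand beside 40.9%, 66.0% and 41.1% of all genes. The median log2 difference was 0.025 for the empty vector, -0.17 for sh4, 0.066 for shAMB and -0.12 for the tumors. In sh4 cells OSTM1, the partner of the chloride exchanger CLCN7, rose by 1.03, with PPT1 (0.69), and RRAGC, a Rag GTPase of mTORC1 signalling, fell by 1.35, with LAMTOR4 (-0.92) and SLC17A5 (-0.71). In shAMB cells the transcription factor TFEB (1.61), ARSA (1.36) and GAA (1.26) rose and GM2A (-2.11), PPT1 (-1.68) and SLC17A5 (-1.17) fell. In the xenografts CTSF (0.67) and IDS (0.64) were higher and GM2A (-1.93), PPT1 (-1.38) and TPP1 (-1.29) lower. PPT1, a palmitoyl thioesterase, thus stood at 317 CPM with Dox in sh4 cells and at 67.2 in shAMB cells, beside 195 in EV cells.

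Of the 10 genes listed within 5 places on either side of ATP6V0A4 on chromosome 7, 4 were in the tables. TMEM213, which overlaps its 5′ end on the opposite strand, stood at 0.156 ± 0.0950 CPM with DMSO and 0.486 ± 0.109 with Dox in shAMB cells (log2 1.62, SE 0.39, edgeR adjusted p = 0.002). In the tumors it was 0.370 ± 0.105 with control food and 6.72 ± 1.96 with Dox food (4.16, SE 0.29, edgeR adjusted p = 6.71e-06). SVOPL, on the other side, also rose in shAMB cells (1.29, edgeR adjusted p = 0.00802) and was higher in tumors with Dox food (2.44, 4.78e-05). KIAA1549, the next gene beyond TMEM213, was abundant throughout and rose in shAMB cells from 121 ± 3.76 to 279 ± 23.04 CPM (1.2, edgeR adjusted p = 7.99e-11), with 197 ± 28.7 and 393 ± 61.6 in the tumors (1.0, 2.69e-04). ZC3HAV1L, the farthest of the 4, was not called changed in any of the 4 main comparisons, at 20.6 and 21.96 CPM in shAMB cells. In EV and sh4 cells none of the 4 neighbours passed the test. SVOPL and TMEM213 did not pass the test of the effect in shAMB against EV cells (edgeR adjusted p = 0.129 and 0.182), whereas KIAA1549 did (1.29, 5.53e-09). Their part in the reads of ATP6V0A4 was not tested.

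The genes whose pattern was most like that of ATP6V0A4 were ranked by the smaller of 2 Pearson correlations of log2(CPM + 1), over the 18 culture libraries and over the 8 tumors, among 14669 genes tested in both. The first 5 were SERPINI2 (0.987), MTUS2-AS1 (0.983), DNAH11 (0.981), LDB3 (0.981) and DLG2 (0.980). These are descriptions, since the libraries share their lines and treatments and ATP6V0A4 was low in most of them. SERPINI2 and DNAH11 were scarce as well, with means of 0.328 and 0.518 CPM in shAMB cells with Dox. In tumors with Dox food they had 0.743 and 1.92 CPM, and in every other group at most 0.0448 and 0.0699. LDB3 stood at 0.258 CPM with DMSO and 5.51 with Dox in shAMB cells, and at 0.287 and 6.32 in the tumors, and DLG2 at 4.26 and 38.1, and at 2.64 and 12.4. Of the other a subunits TCIRG1 ranked 3071 (0.510), ATP6V0A2 5734 (0.029) and ATP6V0A1 7464 (-0.27). ATP6AP1 (0.633) ranked 2303 as the closest of the other members and ATP6V0D1 (-0.822) ranked 11784 as the farthest.

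**Figure D5:**
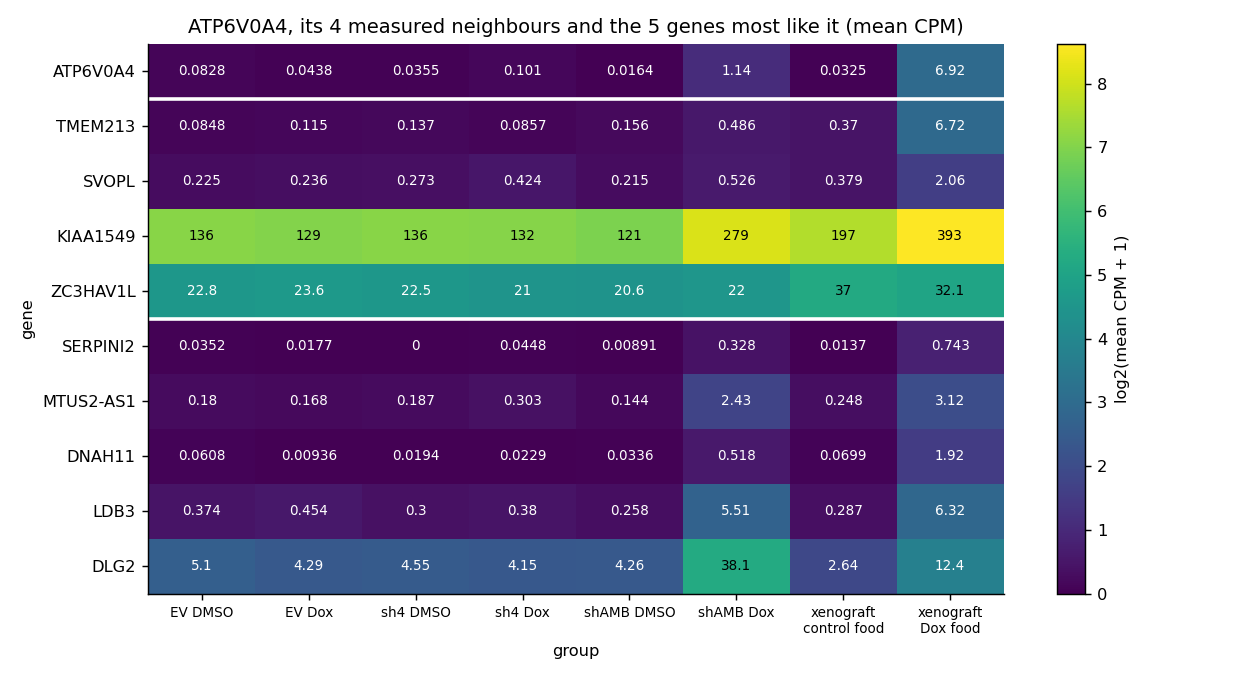
Mean level of ATP6V0A4 (top row), its 4 measured neighbours (middle) and the 5 genes most like it (bottom) in the 8 groups on the horizontal axis; colour is log2(mean CPM + 1) and the number in each cell is the mean CPM. The shAMB Dox and Dox food columns hold the 2 highest values of every gene but ZC3HAV1L.

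Markers of cells in which TCIRG1 or ATP6V0A4 are known to be high were read in the same libraries. Summed over 9 macrophage and osteoclast markers the level was 2.56 to 4.32 CPM in culture, 3.35 to 3.78 in tumors with control food and 5.77 to 6.61 with Dox food. ACP5 went from 0.714 to 2.29 CPM in the tumors, and ITGAM was at 3 counts or fewer in every library. Over 5 markers of kidney intercalated cells the sum was 0.187 to 0.286 CPM in shAMB cells with DMSO and 2.35 to 3.05 with Dox, and 0.427 to 1.17 and 4.13 to 6.87 in the tumors with control and Dox food. Nearly all of it was AQP6, at 2.64 CPM in shAMB cells with Dox and 5.95 in tumors with Dox food, while FOXI1, the defining factor of these cells, and DMRT2 were at 3 counts or fewer in every library. The sum of 6 fibroblast markers was 48.5 to 82.0 CPM with control food and 74.9 to 116 with Dox food. In culture it was 70.8 to 131 CPM, so it reached the level of the tumors without host tissue. Most of it in the tumors was PDGFRB (58.9 and 89.0 CPM), which was 33.8 with DMSO and 59.1 with Dox in shAMB cells. The sum of 6 endothelial markers was 8.71 to 14.6 and 10.8 to 15.7 in the tumors, and 2.16 to 7.96 in culture. Most of it in the tumors was VWF, which went from 0.660 to 5.67 CPM in shAMB cells, while KDR went from 0.655 to 0.120 in the tumors. The part of other cells in the differences of the tumors was not tested, nor is it stated whether mouse reads were removed there. The neuroblastoma markers summed to 4499 to 4793 CPM in shAMB cells with DMSO and 8634 to 9471 with Dox, most of it MYCN.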

How the data were processed

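Total RNA libraries (SMARTer Stranded kit) of 18 cultures and 8 xenografts were analysed from estimated counts per gene, which the authors had made with RSEM after STAR alignment to hg38, and from the deposited TPM values of the same runs, used only for an alternative a-subunit share. STAR, SAMtools, RSEM and hg38 are named in the submitters' processing notes without versions. The labels name polyA RNA as the molecule, and neither the strand setting of counting nor removal of mouse reads is stated. Neg in a column name was taken to mean DMSO and Pos to mean Dox. Of the value columns, 0 were left out.

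Estimated counts were rounded. Genes were kept by filterByExpr, scaled by TMM and tested with the quasi-likelihood test of edgeR 4.0.16 (limma 3.58.1, R 4.3.3), and p-values were adjusted by the Benjamini-Hochberg method over every gene that passed the filter. One fit held the 6 culture groups and another the 2 xenograft groups, which were scaled separately. Shares were compared by exact two-sided permutation tests (python 3.11.15, scipy 1.17.1). Alternatives were RLE scaling, no filter (at least 1 count), DESeq2 1.42.0, a replicate block, trends over GC content and length taken out, only the groups compared, each library left out, and an absolute log2 difference of at least 1. The steps were tested on simulated data. Intervals are at the 95% level.

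The members and lists were chosen with earlier results of these data known. Named from the other V-ATPase and lysosomal lists were the 4 and 3 genes with the largest rise and fall among those changed and with a mean of at least 1 CPM, 4 tissue-restricted isoforms, the neighbours within 5 places of ATP6V0A4 and the 5 genes most like it in log2(CPM + 1). Some lysosomal genes that this rule names are not reported here. Lysosomal and marker genes came from general knowledge of these cells.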

Additional observations from a re-analysis of the deposited data

Results flagged for a closer look

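The effects of Dox in 2 lines differed by a test of the difference itself, an interaction term in edgeR, for 13 pairs of a member and a comparison. Between sh4 and EV cells the difference of the log2 effects was -0.38 for ATP6V0A1, -1.07 for ATP6V0D1, -0.29 for ATP6V1A and -1.04 for ATP6AP2. Between shAMB and EV cells it was 1.57 for TCIRG1 and 0.65 for ATP6AP1. Between sh4 and shAMB cells it was -0.26 for ATP6V0A1, -0.30 for ATP6V0A2, -1.87 for TCIRG1, -0.36 for ATP6V1A, 0.32 for ATP6V1B2, -1.03 for ATP6AP1 and -0.99 for ATP6AP2. With trends over GC content and length taken out, TCIRG1 in the last of these comparisons was -0.51 and ATP6V1B2 was 0.05 (edgeR adjusted p = 0.159). Of 28 sets of 4 tumor values examined for 1 value far from the others, 0 held one.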

How the results depend on the processing

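Of the values of single members under the alternatives, 814 kept their direction and side of the threshold, 29 lost the call, 37 gained it and 47 changed sign. Of those that changed sign, only ATP6V1B2 in sh4 cells with GC content and length trends removed passed the test (-0.051). That setting also turned ATP6V0A1 (-0.013), ATP6V0A2 (0.042) and ATP6V1A (0.0051) in EV cells, ATP6AP2 in shAMB cells (0.024), ATP6V0A2 in the xenografts (-0.088), TCIRG1 (0.36), ATP6V1B2 (-0.050) and ATP6V1H (0.021) in sh4 against EV, and ATP6AP2 in shAMB against EV (0.085). ATP6V1A in shAMB cells was -0.063 with RLE scaling and by DESeq2, -0.033 with no filter and -0.069 with only the groups compared. With no filter the xenograft values of ATP6V0A1, ATP6V0A2 and ATP6V1B2 were -0.022, -0.063 and -0.045. ATP6V1H in sh4 against EV was 0.013 with RLE scaling, 0.014 by DESeq2 and 0.00029 with only the groups compared. With 1 library left out, signs turned within these ranges: in EV cells ATP6V0A2 from -0.050 to 0.028 and ATP6V1H from -0.043 to 0.040; in sh4 cells TCIRG1 from -0.25 to 0.48, ATP6V1B2 from -0.0016 to 0.12 and ATP6V1H from -0.066 to 0.037. In shAMB cells ATP6V0D1 ranged from -0.20 to 0.0077 and ATP6V1A from -0.023 to 0.043, and in the xenografts ATP6V0A1 ranged from -0.0041 to 0.084, ATP6V0A2 from -0.035 to 0.013 and ATP6V1B2 from -0.043 to 0.062. ATP6V1H in sh4 against EV ranged from -0.058 to 0.053, and ATP6AP2 in shAMB against EV from -0.081 to 0.00016. The count of members changed in sh4 cells was 3 with only the groups compared in the fit. In shAMB cells it was 5 with RLE scaling, with no filter, by DESeq2 and with only the groups compared, and 8 with GC content and length trends removed. For shAMB against EV it was 7 with those trends removed and 4 with only the groups compared, and for sh4 against EV with DMSO it was 1 with the trends removed. Requiring an absolute log2 difference of at least 1 left 1 member each in sh4 cells, shAMB cells, shAMB against EV and the xenografts, 2 each in sh4 against EV and sh4 against shAMB, and 0 in shAMB against EV with DMSO. It left 1, 2 and 1 other V-ATPase genes and 2, 11 and 8 lysosomal genes in sh4 cells, shAMB cells and the xenografts. With only the groups compared, 6 other V-ATPase genes were changed in sh4 cells. The share of ATP6V0A1 in the xenografts differed by -2.34 points without ATP6V0A4 in the sum.

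Correlations of deviations from the group means between same-numbered libraries were -0.60 to 0.37. These few values cannot show whether the libraries were paired, and the main fits used no pairing. With a replicate block 1 member was changed in the xenografts, and the share of ATP6V0A1 there differed by -6.57 points. Leaving out 1 library at a time, the members changed numbered 0 to 0 in EV, 4 to 5 in sh4 and 3 to 4 in shAMB cells, 3 to 6 and 1 to 3 against EV for sh4 and shAMB, 7 to 8 for sh4 against shAMB, 0 and 1 for the lines with DMSO, and 2 to 5 in the xenografts. The other V-ATPase genes numbered 8 to 17, 12 to 16 and 6 to 9 in sh4, shAMB and the xenografts, and the lysosomal genes 26 to 45, 36 to 46 and 19 to 27. The share of ATP6V0A1 differed by -0.18 to 0.56, -2.51 to -2.20, -7.38 to -6.37 and -7.24 to -5.99 points in EV, sh4, shAMB and the xenografts. Of all genes called, 27.0% were higher in EV cells with GC content and length trends removed, beside 14.3%. For shAMB against EV with DMSO the share was 58.3% with those trends removed and 61.2% with only the groups compared, beside 72.7%. Counts of ATP6V0A4 outside the 2 groups in which it was high were too few to show small differences.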
